A study of Mus musculus with 18 samples.

Results

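The sites described here are 559 cytosines of mRNA exons that were called as 5-methylcytosine (m5C) after oxygen-glucose deprivation and reoxygenation (OGD/R) of both durations, and in no untreated library. They were selected on the calls of these libraries. A site had to lie in an exon of a curated RefSeq protein-coding transcript of mm10, on its strand, to be called in none of the 3 control libraries, in at least 1 OGD/R 1.5h and at least 1 OGD/R 3h library, and in at least 3 of the 6 OGD/R libraries. The 559 sites lay in 274 genes and were 559 of the 18059 mRNA sites and of the 25890 sites listed in all. Their presence in both OGD/R groups and their absence from control are the selection itself and are not a result.

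The samples are labelled as primary cortical neurons of C57BL/6 mice taken at embryonic day 18. The 3 control libraries came from untreated cells. The OGD/R libraries came from cells kept without glucose in a gas mixture given as 94% N2, 21% O2 and 5% CO2 (shares that add up to more than 100%) for 1.5 h or 3 h, and then returned to normal medium for 24 h, with 3 libraries for each duration. Ribosomal RNA was removed before bisulfite treatment of the 9 libraries. No allele or further agent is named for any group, and the labels do not say whether the libraries of a group came from separate cultures.

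In mRNA, m5C is deposited mainly by the methyltransferases NSUN2, whose sites are known for guanines just downstream, and NSUN6, whose sites are known for the letters CTCCA. The export factor ALYREF and the stabilising protein YBX1 bind the mark, and TET dioxygenases can oxidise it. Bisulfite turns cytosine into uracil and leaves m5C unchanged, so a cytosine that escaped conversion for another reason is read in the same way.

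Each deposited file lists the called sites of a library with a number between 0 and 1000, read here as the methylation call score of the site caller meRanCall. The score is taken to combine coverage and methylation level, but its formula is not given. It is not corrected for depth. How deeply each library was sequenced is unknown. Control libraries listed 5907 to 6254 sites, OGD/R 1.5h libraries 5423 to 5745 and OGD/R 3h libraries 7266 to 7772. A site that is not listed is not a site at 0: its coverage can have been under 10, its level under 0.1, or its transcript scarce. In bulk RNA, fewer cells of a type and less RNA per cell cannot be told apart. The coverage of the libraries of a group differed by less than sampling noise where it could be checked (control and OGD/R 3h), so the 3 libraries of each group were counted as 1 sample, the spread between them may be technical, and no p-value was computed. The labelled cell type was checked against marker lists. None of 20 neuron markers, among them Tubb3, Map2 and Snap25, carried a site in any of the 9 libraries, whereas 29 of 30 intestinal epithelium markers carried a site in an OGD/R library and 23 in a control library. The data thus go against the labelled cell type, and the samples are named here by their groups only. Sites in intestinal markers numbered 125 to 142 per control library, 84 to 97 per OGD/R 1.5h library and 268 to 292 per OGD/R 3h library, those in erythroid markers 0, 0 to 1 and 31, and those in neutrophil markers 1 to 2, 0 and 32. The part of these differences in the sites described here was not tested.

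The sequences around the highest-scoring sites of 10 genes, ranked by the median over the 6 OGD/R libraries with 0 where a library had no call, are shown first, since the scores below turn on them. Each is 21 nt of the RefSeq GRCm38.p6 (mm10) sequence, 5′ to 3′ on the transcript's strand, with the called cytosine in capitals.
Rabggtb, chr3:153912124-153912144, minus strand: tagaattactCtgagacctga
Tmem38b, chr4:53860675-53860695, plus strand: cacgcccgatCttgtctgatc
CYTB, chrM:14554-14574, plus strand: aaatatcattCtgaggtgcca
Lars2, chr9:123462064-123462084, plus strand: ggattgttcaCccactaatag
Tmsb4x, chrX:167209139-167209159, minus strand: tccgcagcggCttctgagcag
Actb, chr5:142903257-142903277, minus strand: tctgaatggcCcaggtctgag
Vil1, chr1:74432406-74432426, plus strand: agggtgtggaCcccagcagga
Fcgbp, chr7:28120544-28120564, plus strand: ggggaagacaCcgatagagaa
Fbrs, chr7:127489498-127489518, plus strand: tgggtccgtcCccctgaaact
Hsp90b1, chr10:86704305-86704325, minus strand: ggctcaaggaCagatgatgaa
At none of these 10 cytosines do the letters CNGGG (N is any base) or CTCCA begin.

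The comparison of both OGD/R groups with control asks how many of the sites called after both durations of deprivation had no call in untreated cells. Of the 1077 mRNA sites called in both OGD/R groups and in at least 3 of their 6 libraries, 559 (51.9%) had no control call. The same rule was applied to the other pairs of groups. Of 1089 sites shared by control and OGD/R 3h, 552 (50.7%) had no OGD/R 1.5h call, and of 1354 sites shared by control and OGD/R 1.5h, 821 (60.6%) had no OGD/R 3h call. The number of sites gained in both OGD/R groups thus lay close to the number missing from OGD/R 1.5h alone and below the number missing from OGD/R 3h alone. When all 6 libraries of the pair had to call the site, the 3 counts were 67, 105 and 149, and the sites of both OGD/R groups were the fewest, with 33.0% lacking a control call. Pairs of libraries of different groups shared few sites whichever the groups: 6.52 to 7.29% of the mRNA sites called in either library for OGD/R 1.5h with OGD/R 3h, 6.84 to 7.31% for control with OGD/R 3h and 10.3 to 10.7% for control with OGD/R 1.5h. Within a group the shares were 40.0 to 40.9% (control), 29.8 to 30.6% (OGD/R 1.5h) and 42.8 to 45.4% (OGD/R 3h). All 3 sets rest on the same 9 libraries and are not independent of each other.

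**Figure D1:**
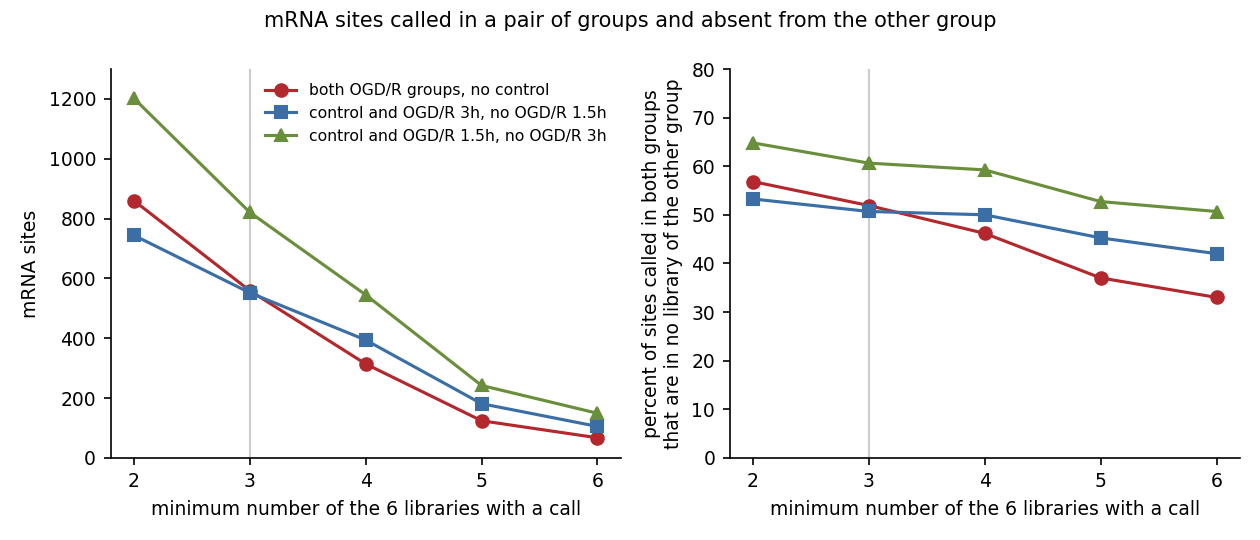
Number of mRNA sites called in a pair of groups and in no library of the other group (left) and the percent they make of the sites called in both groups of the pair (right), against the minimum number of the 6 libraries with a call. The grey line marks the minimum of 3 used here, where the sites of both OGD/R groups number 559 beside 552 and 821. At 6 libraries the counts are 67, 105 and 149.

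Most of the 559 sites were called in part of the libraries. Exactly 3 of 6 libraries called 245 sites, 4 or more called 314 and all 6 called 67. More OGD/R 3h than OGD/R 1.5h libraries called 280 sites, the reverse held for 162, and 117 were called in as many of each. The most frequent pattern, with 140 sites, was 1 OGD/R 1.5h and 2 OGD/R 3h libraries. The OGD/R 1.5h libraries called 321, 331 and 345 of the sites, and the OGD/R 3h libraries 423, 396 and 366, so that every OGD/R 3h library held more of them. As a share of the mRNA sites of the library the order turned, with 9.15 to 9.31% in OGD/R 1.5h and 7.72 to 8.37% in OGD/R 3h, whose libraries listed more mRNA sites in all. The median score of the called sites was 7, 8 and 9 in the OGD/R 1.5h libraries and 10, 10.5 and 9 in the OGD/R 3h libraries, and 47.0 to 57.0% of the calls scored under 10, near the share among all mRNA sites of the same libraries (53.3 to 54.4% in OGD/R 1.5h and 45.1 to 46.8% in OGD/R 3h). In the other pairs of groups 37.9 to 50.8% scored under 10. The score cap of 1000 was reached by 9 to 11 of the sites in an OGD/R 1.5h library and by 16 to 19 in an OGD/R 3h library. Low scores were thus common to the mRNA sites of these libraries.

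Rabggtb, which encodes the beta subunit of the enzyme that attaches lipid anchors to Rab proteins, held the highest-scoring sites. All 11 of its sites were called in all 6 OGD/R libraries. At chr3:153912134 all 6 libraries scored 1000. At chr3:153912136 the scores were 784, 1000 and 1000 in OGD/R 1.5h and 1000 in all 3 OGD/R 3h libraries. At chr3:153912155, the lowest-scoring of the 11, they were 784, 1000 and 1000 in OGD/R 1.5h and 913, 849 and 1000 in OGD/R 3h. The groups overlapped at all 11 sites, and no Rabggtb site was called in a control library. The 11 sites spanned 68 nt between 142 and 75 nt upstream of the start codon. Of them, 9 lay inside Snord45c (chr3:153912129-153912189, minus strand, 61 nt), a box C/D small nucleolar RNA whose gene overlaps this exon of the annotated mRNA, and the other 2 lay at most 12 nt outside it. Reads of the small RNA and of the mRNA cannot be told apart in these files. All 10 cytosines of Snord45c were called in OGD/R libraries and none in control. The stretches with 5 and 6 of the sites are given below, with the called sites of this set in capitals.
Rabggtb, chr3:153912173-153912201, minus strand: CaatgatgagCtggCatgtattCtgaatC
Rabggtb, chr3:153912130-153912159, minus strand: aaacCaCtttagCtCtagaattaCtCtgag
Every cytosine of the first stretch is a site of this set, and 6 of 7 in the second. The lower-case cytosine of the second was called only in OGD/R 3h, at 1000 in each library.

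**Figure D2:**
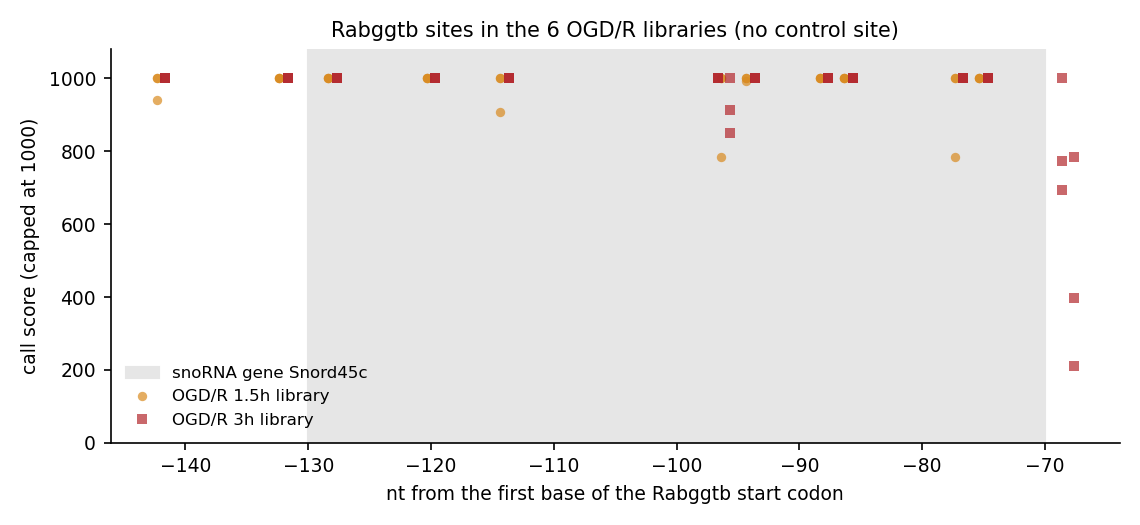
Call score (vertical, capped at 1000) of the Rabggtb sites in the 3 OGD/R 1.5h libraries (circles) and the 3 OGD/R 3h libraries (squares) against the distance in nt from the first base of the start codon, with the snoRNA gene Snord45c shaded. The 11 sites between -142 and -75 sit at 784 to 1000 in all 6 libraries, and 3 more cytosines have OGD/R 3h calls only.

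Tmem38b, which encodes an intracellular monovalent cation channel, scored 1000 in all 6 OGD/R libraries at chr4:53860685 in its 3′UTR. This cytosine lies inside LOC115490001, an annotated rRNA gene of 119 nt on the same strand. A cytosine 5 nt away was called at 1000 in control replicate 3, so the neighbourhood was not free of control calls.

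Several high-scoring sites were far stronger after 3 h. At the Tmsb4x site shown above, 59 nt upstream of the start codon of this thymosin beta 4 (actin monomer-binding) mRNA, OGD/R 3h scored 1000 in each library, and OGD/R 1.5h was called in replicate 3 alone, at 31. At Actb chr5:142903267, in the 3′UTR of cytoplasmic beta actin, OGD/R 3h scored 878, 846 and 870, and OGD/R 1.5h was called in replicate 2 alone, at 44. At Lars2 chr9:123462074, in the 3′UTR of mitochondrial leucyl-tRNA synthetase, OGD/R 3h scored 1000 in each library, and OGD/R 1.5h scored 44 and 39 in replicates 2 and 3. These 3 sites were called at high scores in every OGD/R 3h library and at low scores in some OGD/R 1.5h libraries. The 41 nt around the Lars2 site have 8 further near-identical copies in the genome, whose part in the reads was not tested, and a control call lies 2 nt away. CYTB, the cytochrome b subunit of respiratory complex III encoded by the mitochondrial genome, scored 94, 285 and 187 in OGD/R 1.5h and 1000 in each OGD/R 3h library at chrM:14564, with no overlap. Its 41 nt have 1 further genome copy. Fbrs, which encodes fibrosin, scored 178, 67 and 155 in OGD/R 1.5h and 1000, 795 and 504 in OGD/R 3h at chr7:127489508, again with no overlap. The nearest control call lay 5 nt from that Fbrs site.

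The remaining high-scoring sites were of like size in both OGD/R groups or higher after 1.5 h. Vil1, which encodes the brush border protein villin, scored 416, 397 and 434 in OGD/R 1.5h and 244, 199 and 361 in OGD/R 3h at chr1:74432416, all lower than in OGD/R 1.5h, and the neighbouring cytosine was called at 492 in control replicate 3. Fcgbp, a mucus protein of goblet cells, scored 331, 471 and 175 in OGD/R 1.5h and 359, 213 and 704 in OGD/R 3h at chr7:28120554, and the groups overlapped. Hsp90b1, the HSP90 chaperone of the endoplasmic reticulum, scored 233, 248 and 235 in OGD/R 1.5h and 190, 162 and 84 in OGD/R 3h at chr10:86704315, all lower. The 4 Fcgbp sites also lie within the annotated pseudogene Gm21925 on the same strand.

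**Figure D3:**
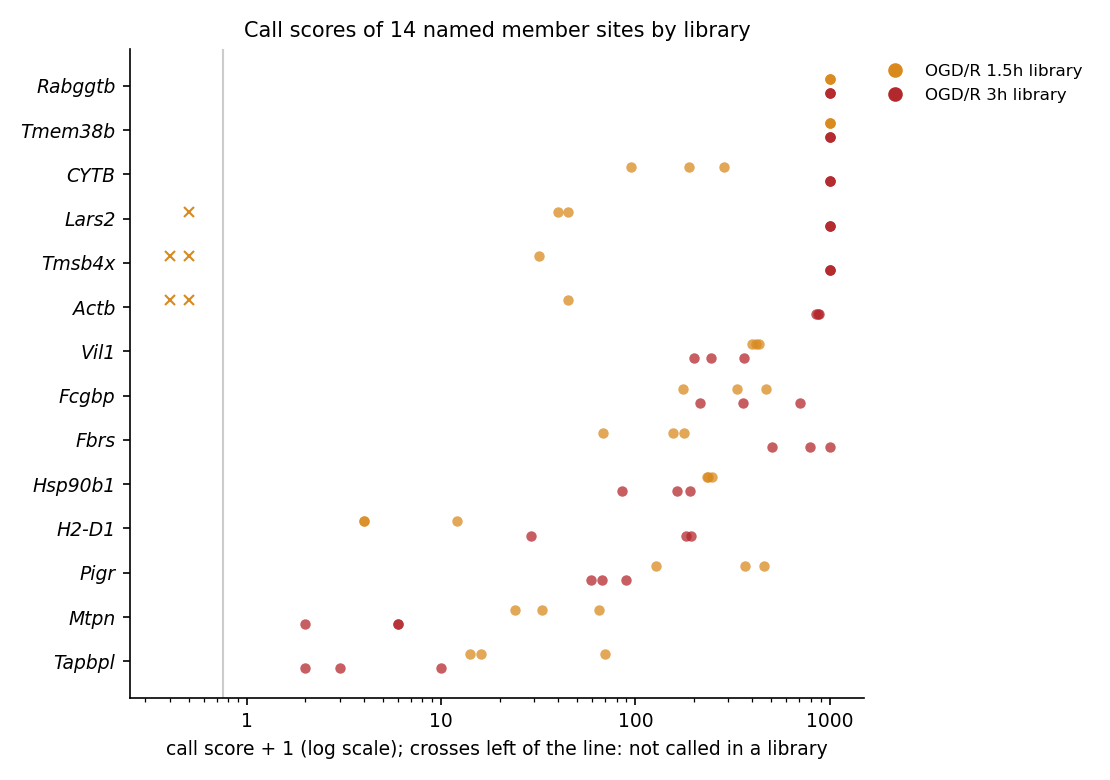
Call score + 1 (log scale) of 14 named sites in the 3 OGD/R 1.5h (orange, upper row of each gene) and the 3 OGD/R 3h (red, lower row) libraries. Crosses left of the line are libraries without a call. Rabggtb and Tmem38b sit at the cap in all 6 libraries, and Tmsb4x, Actb and Lars2 lack a call in 1 or 2 OGD/R 1.5h libraries and score 846 or more in all OGD/R 3h libraries.

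The durations were compared by score at the 67 sites called in all 6 OGD/R libraries, in 54 genes. The selection used calls and not score values, but the score is not independent of it. A call needs a minimum coverage and level, which the score is taken to combine. Sites called in part of the libraries were left out, among them the Tmsb4x and Lars2 sites above, which differed strongly between the durations. The ratios and counts here thus describe sites called in every OGD/R library and not the gained sites as a whole. The median over sites of the log2 ratio of OGD/R 3h to OGD/R 1.5h median scores (score + 1) was 0.0 and the mean was 0.13. All 3 OGD/R 3h scores lay above all 3 OGD/R 1.5h scores at 7 of the 67 sites and below them at 9, against 12.8% and 15.3% of the 203 mRNA sites called in all 6 libraries, and 51 overlapped. These counts are near the background of all such sites. At 7 of the 51, 6 of them in Rabggtb, all 6 libraries were at the cap, where no difference can be seen.

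The largest rise among sites without overlap was in H2-D1, a heavy chain of MHC class I that presents peptides to T cells. At chr17:35263121, just after its start codon, it scored 3, 3 and 11 in OGD/R 1.5h and 182, 192 and 28 in OGD/R 3h, a log2 ratio of 5.52. No further copy of its 41 nt was found, but the other gained H2-D1 site, at chr17:35263138, has 1 further genome copy, and the part of reads shared with related MHC genes was not tested. The log2 ratio of the CYTB site above was 2.41. The largest falls were in Pigr, the epithelial receptor that carries immunoglobulin A across cells, Mtpn, which encodes the actin-capping regulator myotrophin, and Tapbpl, a peptide editor of MHC class I. Pigr scored 368, 461 and 127 in OGD/R 1.5h and 58, 89 and 66 in OGD/R 3h at chr1:130851124, a log2 ratio of -2.46. Mtpn scored 64, 32 and 23 and then 5, 5 and 1 at chr6:35539585, also -2.46. Tapbpl scored 13, 69 and 15 and then 2, 9 and 1 at chr6:125231642, -2.42. Of these sites, those of Mtpn and Pigr had a control call within 8 to 38 nt, and Tapbpl had no control call anywhere in the gene. The sequences of 4 of these sites not yet shown follow, with the called cytosine in capitals.
H2-D1, chr17:35263111-35263131, plus strand: cagatgggggCgatggctccg
Pigr, chr1:130851114-130851134, plus strand: aggaggtgaaCctgagagaca
Mtpn, chr6:35539575-35539595, minus strand: ttcatgtgggCcctgaaaaac
Tapbpl, chr6:125231632-125231652, minus strand: agcaggggaaCtgtggagaag

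**Figure D4:**
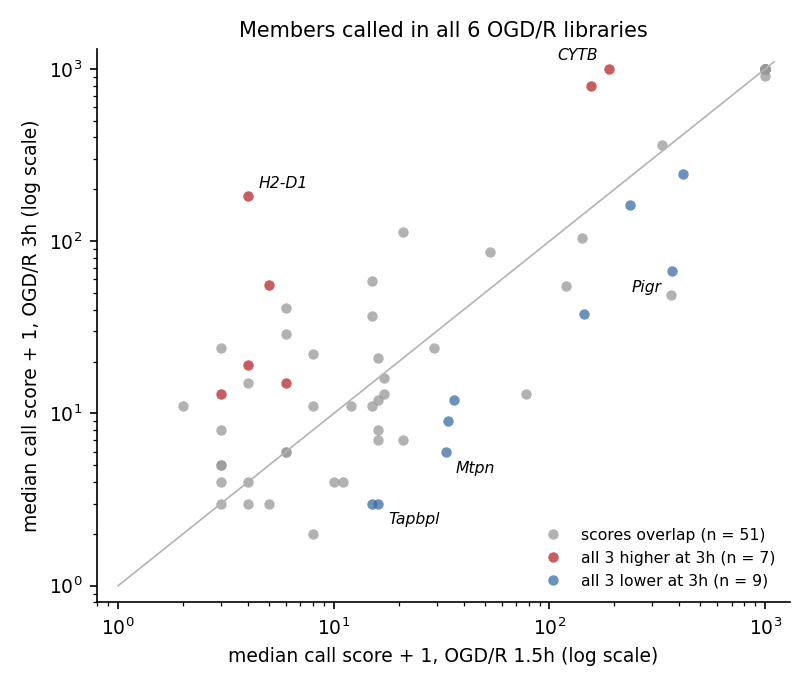
Median call score + 1 of the 67 sites called in all 6 OGD/R libraries, OGD/R 3h (vertical) against OGD/R 1.5h (horizontal), both on log scales, with the line of equality. Red marks the 7 sites with all OGD/R 3h scores higher, blue the 9 with all lower and grey the 51 with overlapping scores. H2-D1 lies farthest above the line.

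The 559 sites were spread over many genes. A single site was found in 159 of the 274 genes, and 23 genes held 5 or more. The 274 genes were 1.3% of the 21013 annotated protein-coding genes and 12.5% of the 2186 genes with an mRNA site in any OGD/R library. The 10 genes with most sites held 85 of them (15.2%). Among them were Ncor1 with 12, Rabggtb with 11, Actb with 10, Epb41l3, Sec31a and Ywhae with 8 each, and Ahcyl2, App and Oat with 7 each. Aldoa and Ctnnb1 also had 7 and were placed after these by their summed scores. Rabggtb was the only gene with 5 or more of the sites and no control site. The other 9 carried 16 to 60 control sites each beside those gained.

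Ncor1, the nuclear receptor corepressor that recruits histone deacetylase, had its 12 sites in the CDS between 1521 and 4655 nt from the start codon, each 1 to 12 nt from a control call. The site with the highest median score (0 where not called), at chr11:62373172, scored 53 and 23 in OGD/R 1.5h replicates 1 and 3 and 17 in OGD/R 3h replicate 2. The site at chr11:62384833 scored 5, 5 and 1 in OGD/R 1.5h and 0 in OGD/R 3h replicate 1. No Ncor1 site was called in all 6 libraries. Ncor1 is thus a gene with many weak calls among the 113 cytosines called in OGD/R and the 60 called in control.

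Actb had 7 of its 10 sites in the 3′UTR, 4 of them within 16 nt. At chr5:142903261 OGD/R 3h scored 189, 612 and 262 and OGD/R 1.5h was called in replicate 2 alone, at 3. At chr5:142906667, 22 nt upstream of the start codon, all 6 libraries had a call, at 14, 3 and 26 in OGD/R 1.5h and 58, 24 and 107 in OGD/R 3h, and the scores overlapped. The OGD/R 3h libraries called 10, 8 and 10 of the 10 sites and the OGD/R 1.5h libraries 3, 7 and 3.
Actb, chr5:142903247-142903272, minus strand, with 4 sites of the set in capitals: atggcCcaggtCtgaggCctCccttt

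Ywhae, a 14-3-3 protein that binds phosphorylated partners, had 4 of its 8 sites within 100 nt of the start codon. At chr11:75751908 it was called in OGD/R 1.5h replicate 3 at 42 and in OGD/R 3h at 44, 35 and 76. Sec31a, an outer coat subunit of COPII vesicles, scored 11, 66 and 25 in OGD/R 1.5h and 57 and 9 in OGD/R 3h replicates 2 and 3 at chr5:100388556. Epb41l3, which links membrane proteins to the spectrin-actin skeleton, had its 8 sites in the CDS between 102 and 369 nt from the start codon, with scores of 0 to 52. Oat, the ornithine aminotransferase of mitochondria, stood out from these genes by 1 strong site at chr7:132558034 in its 3′UTR, with 173, 126 and 179 in OGD/R 1.5h and 64 and 31 in OGD/R 3h replicates 1 and 2. App, the amyloid precursor protein, had 7 in the CDS with scores of 0 to 28, and Ahcyl2, a relative of adenosylhomocysteinase, had 7 in the CDS with scores of 1 to 44. Sites of App, Ahcyl2 and Eif4h, a helicase cofactor in translation initiation, stood close together, as the stretches show with sites of the set in capitals.
App, chr16:85015244-85015273, minus strand: cgCatggtggacCccaagaaagCtgctCag
Ahcyl2, chr6:29891218-29891246, plus strand: cgctgCtCtgaaagCcatgggctCcattg
Eif4h, chr5:134621985-134621999, minus strand: atggcCCtCCtctgc
In Eif4h, 4 called cytosines lie within 5 nt, and none of their calls scored above 16.

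By position, 351 sites (62.8%, Wilson 95% interval 58.7 to 66.7%) lay in the CDS, 98 (17.5%, 14.6 to 20.9%) within 100 nt of the start codon, 37 (6.62%) within 100 nt of the stop codon, 36 (6.44%) in the rest of the 5′UTR and 37 (6.62%) in the rest of the 3′UTR. These intervals cover counting error only, and sites of 1 gene are not independent. The same shares in the sites of control and OGD/R 3h were 57.8% in the CDS and 21.6% at the start codon, in those of control and OGD/R 1.5h 61.6% and 20.7%, and in all mRNA sites 55.9% and 23.9%. Set against the cytosines of the 274 transcripts, the start codon region held 6.25 sites per 1000 cytosines, the CDS 2.37, the stop codon region 2.70, the 5′UTR 2.55 and the 3′UTR 0.431. The start codon region thus had the highest density and the 3′UTR the lowest. The position changed with the number of libraries. Among the 67 sites called in all 6, 33 (49.3%, 37.7 to 60.9%) lay in the start codon region and 15 (22.4%, 14.1 to 33.7%) in the CDS, and without Rabggtb 27 of 56 (48.2%) lay in the start codon region. The sites of control and OGD/R 3h called in all 6 of their libraries did the same, with 47.6% in the start codon region, and those of control and OGD/R 1.5h held 40.3% there.

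By context, 91 sites (16.3%, 13.5 to 19.6%) were followed by G (CG), 235 (42.0%) were CHG and 233 (41.7%, 37.7 to 45.8%) were CHH, where H is A, C or T. Of the cytosines of the 274 transcripts, 10.8% were CG, 24.9% CHG and 64.3% CHH. Per 1000 such cytosines there were 3.04, 3.40 and 1.31 sites, so CHH had the lowest density. The share in CG was 26.1% (22.6 to 29.9%) in the sites of control and OGD/R 3h, 23.1% (20.4 to 26.1%) in those of control and OGD/R 1.5h and 22.4% in all mRNA sites. The gained sites had the lowest CG share of the 3 sets also among sites called in all 6 libraries, at 13.4% beside 36.2% and 32.9%, where their CHH share was 49.3% (44.6% without Rabggtb) beside 28.6% and 22.1%. The difference between the sets was not tested, since each group counts as 1 sample. In single libraries, 15.1 to 18.7% of the called sites of this set were CG. The ranges were 20.4 to 23.4% for the other mRNA sites of the OGD/R libraries and 26.9 to 27.9% for the mRNA sites of the control libraries. The libraries draw on the same chosen sites, so these ranges are not replication. The sets also differ by construction, since the comparison sets hold sites called in 1 library.

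Few sites had the letters known for the methyltransferases. The guanine-rich CNGGG on the site's strand, starting at the called cytosine, followed 19 sites (3.40%), beside 3.99% and 4.14% in the other pairs of groups, 3.27% of all mRNA sites and 1.89% of the cytosines of the 274 transcripts. The letters CTCCA began at 1 site (0.179%), in Gsto1, beside 0.719% of those cytosines. The CNGGG sites with the highest median scores (0 where not called) were in Vil1 and in Rnf10, which encodes a RING finger protein, and are shown with the called cytosine in capitals.
Vil1, chr1:74430640-74430660, plus strand: taaggcagagCtgggaaactc
Rnf10, chr5:115249007-115249027, minus strand: cgatgacagtCtgggagaggg
Vil1 scored 61 and 190 in OGD/R 1.5h replicates 2 and 3 and 90, 198 and 106 in OGD/R 3h at this site. These scores overlapped between the groups. Rnf10 was called in 3 libraries.

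**Figure D5:**
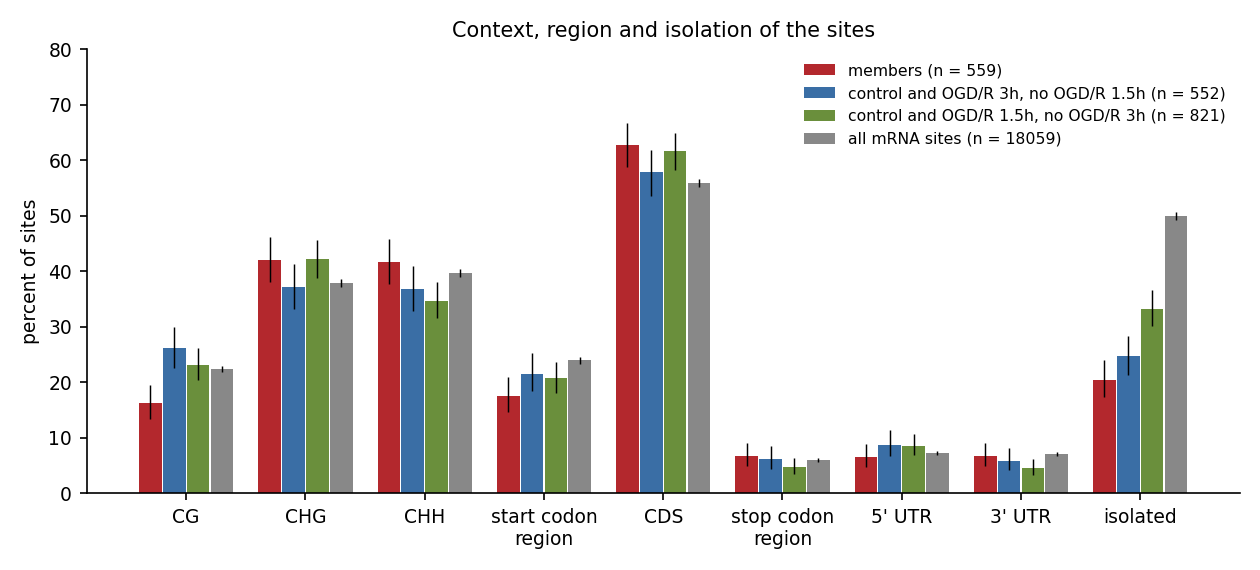
Percent of sites by sequence context (CG, CHG, CHH), by region of the mRNA and isolated from other sites, for the 559 sites of both OGD/R groups, the sites of the other pairs of groups and all mRNA sites. Bars start at 0 and the lines are Wilson 95% intervals, which cover counting error only. The gained sites have the lowest CG share (16.3%) and, at this minimum of 3 libraries, the lowest isolated share (20.4%). All mRNA sites include sites called in a single library, so their isolated share does not compare like with like.

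Most of the sites stood near other called cytosines in some library that called them. Only 114 (20.4%, 17.3 to 23.9%) had no other called site within 10 nt in every library that called them. The shares were 24.6% for control and OGD/R 3h and 33.3% for control and OGD/R 1.5h. Of all mRNA sites, 9030 of 18059 were isolated. These include sites called in fewer libraries, with fewer chances to show a neighbour, so this share does not compare like with like. The order of the pairs of groups held at the minimum of 3 libraries and not among sites called in all 6. There, 28.4% of the gained sites were isolated, beside 18.1% and 28.2% in the other pairs. With scores under 10 left out, 45.5% of the gained sites were isolated. Another site of the set lay within 10 nt of 143 sites (25.6%). A control call lay within 10 nt of 240 sites (42.9%), within 50 nt of 377 (67.4%) and next to 64, with a median distance of 15 nt. Sites missing from OGD/R 1.5h alone had a call of that group within 10 nt in 52.9% of cases and sites missing from OGD/R 3h alone in 33.6%, so the gained sites lay between these. Whether close calls come from m5C or from incomplete conversion was not tested. A further near-identical copy of the surrounding 41 nt was found for 44 sites (7.87%), among them all 5 of Eef1a1, the elongation factor that carries aminoacyl-tRNA to the ribosome, and 4 of 7 of Aldoa.

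Most of the genes with a gained site also had control calls. Of the 274 genes, 249 (90.9%) also carried a control site elsewhere, and 25 (9.12%) did not. Among the 1912 other genes with an OGD/R site, 770 (40.3%) had no control site. The genes with a gained site held 1 to 128 OGD/R sites each. The number of sites per gene was not matched, so these shares do not compare like with like. In the other pairs of groups, 7.55% of the genes of control and OGD/R 3h had no OGD/R 1.5h site and 29.7% of those of control and OGD/R 1.5h had no OGD/R 3h site. The share for the gained sites was 14.6% with scores under 10 left out and 3.70% among sites called in all 6 libraries. The 25 genes held 40 of the sites. Beside Rabggtb, Sec24a, a cargo adaptor of COPII vesicles, had 4 sites within its CDS and Abhd2, a lipid hydrolase, had 3 near its start codon, and the other 22 genes had 1 each. The scores of Sec24a and Abhd2 were 25 or less.

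The gene lists were read against the 1.3% of annotated genes and the 12.5% of genes with an OGD/R site that carried a gained site. Of 25 genes of the unfolded protein and heat shock response, 6 carried 11 sites, which is 42.9% of the 14 list genes with any OGD/R site. These were Calr and Canx, the lectin chaperones of the endoplasmic reticulum, P4hb, its disulfide isomerase, Hsp90b1, the cytosolic Hsp90ab1 and Hspa4. They held 10 to 76 OGD/R sites each, and the list genes without a gained site held at most 21, so the gene share does not compare like with like. Calr, 50 nt upstream of its start codon, was called in OGD/R 1.5h replicate 3 at 5 and in OGD/R 3h at 319, 518 and 312. Canx, 23 nt upstream, had calls in all 6, at 4, 52 and 54 in OGD/R 1.5h and 120, 26 and 86 in OGD/R 3h, which overlapped. P4hb was called in OGD/R 1.5h replicate 3 at 343 and in OGD/R 3h at 85, 92 and 141. Control calls were found in 13 genes of this list.

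Of 31 genes of the actin cytoskeleton and nonmuscle myosin list, 5 carried 25 sites, which is 20.8% of the 24 with an OGD/R site. These were Actb, Pfn1 with 6, Tmsb4x with 4, Myh9 with 3 and Actn4 with 2. They held 26 to 128 OGD/R sites each and the other list genes at most 36, and the gene share is not corrected for this. All 4 Tmsb4x sites had OGD/R 3h calls in each library and an OGD/R 1.5h call in replicate 3 alone. At Pfn1, the actin monomer-binding profilin, the highest scores were at chr11:70654571, with 44, 82 and 52 in OGD/R 1.5h and 369 and 139 in OGD/R 3h replicates 2 and 3. Myh9, a nonmuscle myosin heavy chain, scored 76, 79 and 136 in OGD/R 1.5h and 223 and 89 in OGD/R 3h replicates 1 and 2 at chr15:77775846. Actn4, an actin crosslinker, scored 116, 223 and 281 and then 113 and 68 in OGD/R 3h replicates 1 and 3 at chr7:28904631.

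Of 96 nuclear-encoded respiratory chain genes, 8 carried 17 sites, which is 16.7% of the 48 with an OGD/R site. These 8 held 5 to 63 OGD/R sites each and the other list genes at most 17, and the gene share is not corrected for this. Cox4i1, a subunit of cytochrome c oxidase, had 6 sites that scored 41 or less, Ndufb8, of complex I, had 3 sites at its start codon that were called in all 6 libraries, Ndufa10 and Ndufb10 had 2 each, and Atp5a1, Atp5b, Ndufb11 and Sdhb had 1 each. Atp5b, the catalytic beta subunit of ATP synthase, scored 35, 28 and 193 in OGD/R 1.5h and 11, 18 and 4 in OGD/R 3h at chr10:128083359, all lower. Of the mitochondrial genome, 5 sites were gained, 3 in CYTB and 2 in COX3, a further subunit of cytochrome c oxidase.

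Of 30 intestinal epithelium markers, 8 carried 20 sites (27.6% of the 29 with an OGD/R site): Fcgbp with 4, Anpep, Fabp2, Pigr and Vil1 with 3 each, Krt8 with 2, and Cdhr5 and Zg16 with 1 each. These 8 held 9 to 114 OGD/R sites each and the other markers at most 31, and the gene share is not corrected for this. At Krt8 chr15:101998469, in a keratin of simple epithelia, OGD/R 1.5h scored 57 and 74 in replicates 1 and 2 and OGD/R 3h 340, 387 and 581, with 1 further genome copy of its 41 nt. At Anpep chr7:79842203, in the brush border aminopeptidase N, the 6 scores were 28, 98 and 14 in OGD/R 1.5h and 23, 12 and 81 in OGD/R 3h, which overlapped. No marker of neurons (20 genes), of astrocytes and glia (11), of erythroid cells (9), of neutrophils and bone marrow (20) or of smooth muscle and fibroblasts (14) carried a gained site. In these lists 0, 1, 3, 4 and 8 genes had an OGD/R site at all.

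Of 23 oxidative stress genes, 4 carried 6 sites (26.7% of the 15 genes with an OGD/R site). Fth1, the heavy chain of the iron store ferritin, had 3 of them within 43 nt upstream of its start codon, with scores up to 162 in OGD/R 3h and up to 39 in OGD/R 1.5h, and Prdx5, Prdx6 and Sod2, which remove peroxides and superoxide, had 1 each. These 4 genes held 5 to 56 OGD/R sites each and the other list genes at most 13, and the gene share is not corrected for this. Of 22 hypoxia response genes, Aldoa, the glycolytic aldolase, alone carried sites, 7 of them, with scores of 1 to 66. In that list 4 genes had an OGD/R site. Aldoa held 46 OGD/R sites and the others at most 7. Of 14 writers, erasers and readers of m5C, 3 had an OGD/R site and 2 carried a gained site. Tet3, an oxidising dioxygenase without a control site, was called in OGD/R 1.5h replicate 3 at 7 and in OGD/R 3h replicates 1 and 2 at 134 and 44. Ybx1, the reader, was called in all 6 libraries at 10, 17 and 15 in OGD/R 1.5h and 162, 10 and 11 in OGD/R 3h, 68 nt upstream of its start codon, and its 41 nt have 2 further genome copies.

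Of 70 translation factors, 4 carried 16 sites: Eif4h had 6, Eef1a1 5, Eef2, the translocation factor, 3, and Eif4g2, an initiation factor related to eIF4G, 2. Of 87 cytosolic ribosomal protein genes, Rpl8 alone carried a site, at 36 in OGD/R 1.5h replicate 1 and 70 and 31 in OGD/R 3h replicates 1 and 3, although 27 of the list had an OGD/R site. The sequence around this Rpl8 site has at least 1 further near-identical copy in the genome. None of 24 apoptosis genes and none of 50 proteasome genes carried a gained site, and 4 and 9 of them had an OGD/R site. Of the 20 transcripts that the study picked as candidates or network hubs from these samples, all of which had an OGD/R site, 3 carried a gained site: Rack1, a ribosomal scaffold, Rpl8, and Srsf1, a splicing factor. Rack1 scored 36, 5 and 7 in OGD/R 1.5h and 12 in OGD/R 3h replicate 3. Srsf1 scored 11 in OGD/R 1.5h replicate 1 and 4, 4 and 34 in OGD/R 3h.

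The limit of 3 libraries cut through sites of similar strength. Just inside it, with exactly 3 calls, the highest median scores (0 where not called) were at Krt8 chr15:101999440, with 173 in OGD/R 1.5h replicate 1 and 131 and 134 in OGD/R 3h replicates 1 and 2, and at Rnf10 chr5:115249017, with 107 and then 112 and 130 in the same libraries. Just outside it, 301 sites had 1 call in each OGD/R group and no control call. The strongest were at Fzd5 chr1:64731391, a Wnt receptor, with 242 in OGD/R 1.5h replicate 2 and 31 in OGD/R 3h replicate 1, and at Ace chr11:105968945, the angiotensin-converting enzyme, with 182 and 85 in replicate 2 of each group.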

How the data were processed

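The 9 bisulfite libraries, 3 for each group, were used. Libraries made without bisulfite (mock, 9) are left out here. Per the methods of the authors, Cutadapt 1.9.3 trimmed the reads, meRanGh placed them on mm10, and meRanCall reported the sites library by library (methylation level at least 0.1, coverage at least 10). Base calling with CASAVA 1.8 and use of STAR are named in the submitters' processing notes. The part of the mock libraries in the calls is not given in the sources used here. The deposited files hold the position and call score of each site, whole numbers from 0 to 1000, per the file values, without normalisation for depth. Since the score holds neither reads nor levels, no count model was used.

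Sites were placed on the curated RefSeq transcripts of annotation release 108.20200622 (GRCm38.p6) by strand. Start and stop codon regions reached 100 nt to either side of the codon, and an isolated site had no other called site within 10 nt in any library that called it. A window of 41 nt around each site was compared with the genome by blastn 2.17.0 (word size 16, e-value limit 1e-3), and a match of at least 38 identical bases counted as a further copy. Scores were compared as log2(score + 1) of group medians. Intervals are Wilson 95% intervals and cover counting error over sites only. Scripts ran in Python 3.11.15 with numpy 2.4.6, pandas 2.3.3, scipy 1.17.1, pysam 0.24.0 and matplotlib 3.10.9, with samtools 1.23.1, and the selection rule was tested on simulated data.

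The sites and lists were chosen with earlier results of these data known. The genes named were the 10 with most sites, those of the 10 highest median scores, the 3 largest rises and falls without overlap among sites called in all 6 OGD/R libraries, the list genes with a site, the 2 strongest sites on either side of the limit of 3 libraries, and genes with 5 or more sites and none in control. Sec24a, Abhd2 and Gsto1 fall outside this rule and were named after their values were seen. Some genes that the rule names are not reported here. Alternatives changed the number of libraries, the score minimum, the clustering of sites, the codon window and the annotation, and left out each library in turn.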

Additional observations from a re-analysis of the deposited data

How the results depend on the processing

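With each library left out in turn, the number of gained sites was 397 to 622 and of their genes 224 to 299. The share of sites shared by the OGD/R groups that lacked a control call was then 47.9 to 57.8%, the share in CHH 40.1 to 42.6%, at the start codon 16.9 to 21.4%, in the CDS 56.2 to 64.5%, isolated 20.3 to 23.4%, with CNGGG 2.68 to 4.12%, and of genes without a control site 6.99 to 12.1%. Between 71 and 81 sites were called in all remaining OGD/R libraries, with a median log2 score ratio of 0.0, and the other pairs of groups held 425 to 628 (control and OGD/R 3h) and 630 to 894 (control and OGD/R 1.5h) sites. A minimum of 2 libraries gave 860 sites, 56.8% of those shared. With at least 2 libraries in each group, 174 sites in 130 genes remained (41.3% of those shared, 24.7% at the start codon, 52.3% in the CDS, 6.15% of genes without a control site), beside 219 and 310 in the other pairs. With all 6 libraries these were 67 sites in 54 genes (33.0%, 49.3% at the start codon, 22.4% in the CDS, 3.70%), of which 49.3% were CHH and 28.4% isolated, beside 105 and 149. Leaving out scores under 10 in all libraries gave 189 sites in 137 genes (46.1%, 22.2% at the start codon, 43.4% in the CDS, 14.6%), 45.5% isolated and 26 called in all 6, beside 252 and 352. Leaving out sites with a neighbour within 10 nt gave 144 sites in 122 genes, 31.3% CHH, 14.6% at the start codon, 53.5% in the CDS, 19 called in all 6 with a median log2 ratio of -0.27, beside 168 and 343. A window of 50 nt around the codons put 9.48% at the start codon and 69.1% in the CDS. The mean log2 ratio was 0.13. Alternatives chosen after seeing the data gave 58 values (GENCODE annotation, predicted transcripts, and without Rabggtb, small RNA genes and genome copies, or mitochondrial sites). Of these, 57 kept within the Wilson interval of the reported share, within 1.5 times of the reported count, or at the reported log2 ratio. The log2 ratio under GENCODE moved, to -0.049. Under the alternatives planned beforehand, apart from leaving out each library, 42 values moved beyond these limits and 20 did not. Apart from the construction of each alternative, the cause of these changes was not tested. No test was run, and the labels name nothing that pairs libraries of different groups, so no paired analysis was made. Without the coverage of each site, a missing call cannot be told from a low level, and this limits every count above.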

Other observations

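The rule was also applied to the 7831 sites outside mRNA exons. Of 1442 such sites called in both OGD/R groups and in at least 3 of their 6 libraries, 457 (31.7%) had no control call, and the other pairs of groups gave 231 (control and OGD/R 3h) and 360 (control and OGD/R 1.5h) sites. Of the 457, 201 lay in 51 annotated snoRNA genes, which encode guide RNAs of rRNA modification, led by Snord32a with 16 sites, Snord59a and LOC115486842 with 12 each and Snora3 and Snord100 with 10 each. The other pairs of groups had 42 sites in 27 snoRNA genes and 104 sites in 27. A control library held 466 to 536 sites in 79 to 82 snoRNA genes, an OGD/R 1.5h library 678 to 774 in 83 to 87 and an OGD/R 3h library 804 to 944 in 114 to 122, and these counts did not overlap between the groups. As a share of all sites of the library they were 7.74 to 9.07% in control, 11.9 to 13.5% in OGD/R 1.5h and 11.1 to 12.8% in OGD/R 3h, so that the OGD/R groups overlapped and both lay above control. A further 17 of the 457 lay in 9 tRNA genes. No test was made, and the part of the number of snoRNA reads in these counts was not tested.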
